A study of Caenorhabditis elegans with 12 samples.

Results

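Metallothioneins and ferritins are the proteins that hold metal ions in reserve inside the cells of Caenorhabditis elegans. The 4 genes described here, chosen by name, are mtl-1, mtl-2, ftn-1 and ftn-2, out of 20257 genes listed in the deposited values. All 4 passed the filter on low values, which kept 13614 genes for testing. Metallothioneins are small proteins rich in cysteine that bind zinc, copper and cadmium, and in the worm both genes are switched on by cadmium in the intestine. Ferritin forms a hollow shell that stores iron in a safe form. In worms ftn-1 is made mainly in the intestine and ftn-2 more widely, iron raises the transcription of ferritin genes, and the hypoxia factor HIF-1 lowers that of ftn-1 when iron is scarce. The gene mtl-1 is also a much used readout of the insulin pathway factor DAF-16, and ftn-1 responds to that factor too.

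Transcript levels were measured by RNA-seq in whole worms, in 4 groups with 3 libraries each. These were glp-1(e2141) mutants at day 6 of adulthood (glp-1 D6), the same mutants at day 1 (glp-1 D1), wild-type N2 worms at day 6 (WT D6) and N2 worms at day 1 (WT D1). The glp-1 gene encodes a Notch receptor on which the germline stem cells depend, and the e2141 form fails at 25 °C, so that mutants raised there are nearly without germ cells. All 4 groups were fed OP50 bacteria and were grown at 25 °C to day 1, wild type included. D6 worms were then held at a lower temperature, so that age is joined to a change of temperature in both genotypes. For this later period the design text states 20 °C, while the D6 labels list 20 °C with replicate 1, 21 °C with replicate 2 and 22 °C with replicate 3 of each genotype. The study is about intermediate filaments and lifespan, and its design asks what differs between long-lived worms without a germline and wild type, and what changes with age in each.

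The unit is FPKM, fragments of a gene divided by its length and by the total of the library. A gene's FPKM is therefore its share of the RNA sequenced, per length. The estimated depth was 17.2 M to 19.3 M fragments per library (M for 10 to the power of 6). Libraries of the same group had rank correlations of 0.967 to 0.978. The glp-1 transcript itself averaged 6.09 ± 0.626 FPKM in glp-1 D6, 3.32 ± 0.0981 in glp-1 D1, 97.9 ± 1.23 in WT D6 and 66.7 ± 2.16 in WT D1 (SD, n = 3 each). It was thus lower in the mutant at both ages. The summed level of 10 germline genes was 14.7 to 56.4 FPKM in glp-1 D6 libraries and 9.85 to 12.6 FPKM in glp-1 D1 libraries, against 4585 to 4872 FPKM in WT D6 libraries and 3939 to 4058 FPKM in WT D1 libraries. All 11 genes of an intestine list were at or above 1 FPKM in every library. In libraries of whole worms, fewer cells of a type and less RNA per cell cannot be told apart.

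In the WBcel235 build mtl-1 (WBGene00003473) lies on the minus strand of chromosome V from 6691371 to 6691863, with 2 exons, 373 nt of exonic sequence and a protein of 75 residues. The other metallothionein gene, mtl-2 (WBGene00003474), lies on the minus strand of chromosome V from 14018270 to 14018673, with 2 exons, 347 nt and 63 residues. The gene ftn-1 (WBGene00001500) lies on the minus strand of chromosome V from 7546468 to 7547579, with 3 exons and 606 nt. Its paralog ftn-2 (WBGene00001501) lies on the minus strand of chromosome I from 3680180 to 3680927, with 3 exons and 651 nt. Both ferritin proteins have 170 residues, and both genes divide the coding sequence over exons in the same way, with 57, 354 and 99 coding nt. Each of the 4 genes has 1 annotated transcript, and no other annotated gene overlaps any of them.

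In the glp-1 mutant all 4 genes exceeded their wild-type level at both ages, by 1.65-fold to 39.9-fold as ratios of mean FPKM, though the direction of mtl-2 at D6 turned when libraries were scaled to lists of intestine genes or of muscle and neuron genes. In wild type both metallothioneins and ftn-1 were higher at D6 than at D1 while ftn-2 was lower, and that direction of ftn-2 turned under the same scalings. In glp-1 the levels of mtl-1, ftn-1 and ftn-2 were higher at D6 than at D1, and mtl-2 did not pass the test. For none of the 4 genes did the libraries of any 2 groups that differ by genotype alone or by age alone overlap. Of all genes tested the share without such overlap was 89.7% for genotype at D1, 89.6% for genotype at D6, 59.8% for age in glp-1 and 64.9% for age in wild type, so that this is common at 3 libraries a group.

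Metallothionein mtl-1 had the widest range. Its level was 1004, 1070 and 1276 FPKM in the glp-1 D6 libraries (replicates 1, 2 and 3), 402, 365 and 422 FPKM in glp-1 D1, 136, 93.1 and 126 FPKM in WT D6, and 15.8, 4.21 and 9.84 FPKM in WT D1. The order of the groups was glp-1 D6, glp-1 D1, WT D6 and WT D1 from high to low, with no overlap between neighbours. Among all genes of a library, mtl-1 ranked between 85 and 114 by FPKM in glp-1 D6 and between 6276 and 8852 in WT D1. In WT D1 its values correspond to about 101, 28 and 67 fragments.

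The second metallothionein, mtl-2, varied less. It had 189, 186 and 197 FPKM in glp-1 D6, 166, 171 and 170 FPKM in glp-1 D1, 121, 99.4 and 127 FPKM in WT D6, and 37.1, 34.3 and 32.0 FPKM in WT D1. The order of the groups was the same as for mtl-1. The glp-1 D6 and glp-1 D1 libraries of mtl-2 did not overlap but lay close together, and their difference missed the threshold of the test over all genes.

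The intestinal ferritin ftn-1 had 395, 293 and 335 FPKM in glp-1 D6, 51.5, 79.5 and 54.9 FPKM in glp-1 D1, 25.1, 18.5 and 21.8 FPKM in WT D6, and 2.92, 3.83 and 0.586 FPKM in WT D1. Again the order was glp-1 D6, glp-1 D1, WT D6 and WT D1 without overlap. The WT D1 values correspond to about 31, 41 and 6.4 fragments, and replicate 3 was the low one.

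The other ferritin, ftn-2, had a different order. Its level was 931, 893 and 944 FPKM in glp-1 D6, 640, 653 and 618 FPKM in glp-1 D1, 145, 145 and 150 FPKM in WT D6, and 197, 219 and 188 FPKM in WT D1. The wild-type groups were thus in the reverse order of age, with every WT D6 library below every WT D1 library. In WT D1 the level of ftn-2 was the highest of the 4 genes, and in that group ftn-1 was the lowest.

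**Figure D1:**
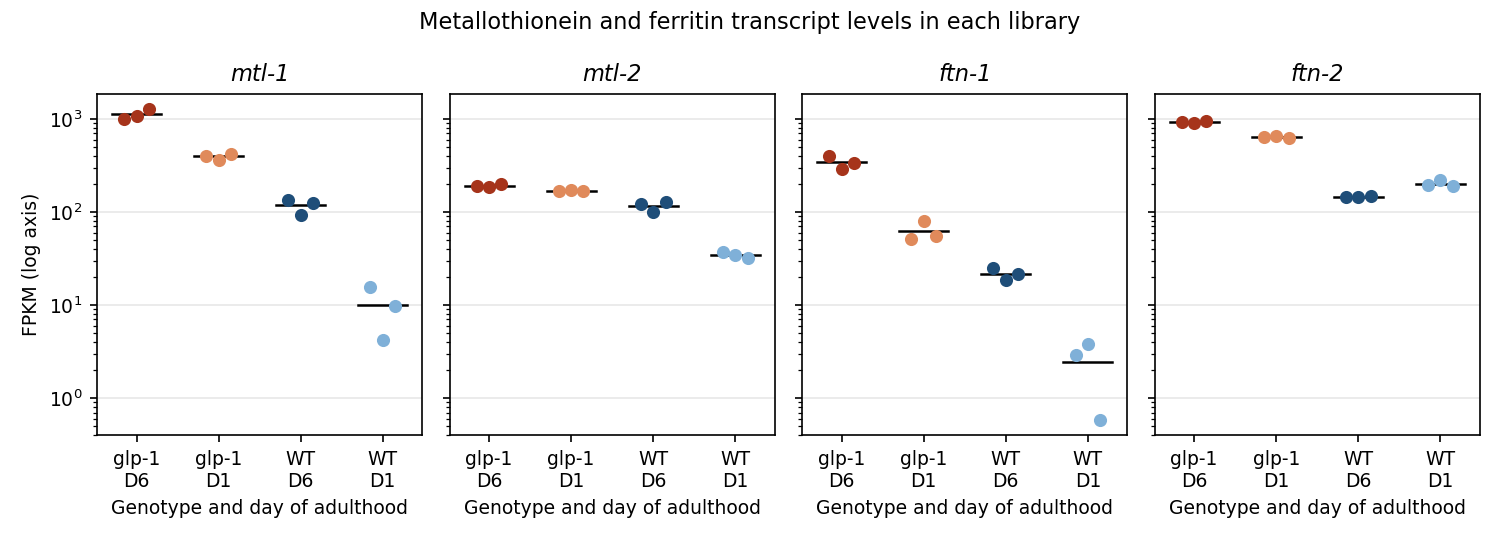
FPKM (log axis) of mtl-1, mtl-2, ftn-1 and ftn-2 in each of 12 libraries, by genotype and day of adulthood; points are libraries and bars are means of 3. The groups of each gene stay apart, mtl-1 spans 4.21 to 1276 FPKM, and ftn-2 is the gene whose WT D6 libraries (145 to 150 FPKM) lie below its WT D1 libraries (188 to 219 FPKM).

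The comparison of glp-1 with wild type at D1 asks how loss of the germline is reflected in young adults. All 4 genes passed the test as higher in glp-1 at D1, where 89.4% of all genes tested passed in either direction and 41.3% passed as higher and 48.1% as lower. With a background of that size, the count of 4 does not set these genes apart, and the sizes of their differences carry the description. For mtl-1 the log2 fold change, on the log2(FPKM + 1) scale used throughout, was 5.33 (SE 0.34, limma adjusted p = 8.15e-08), and 0.022% of genes tested had a larger one. The mean of mtl-1 was 396 ± 29.1 FPKM in glp-1 D1 and 9.94 ± 5.77 FPKM in WT D1 (SD, n = 3 each), a ratio of 39.9. For mtl-2 the log2 fold change was 2.27 (SE 0.08, limma adjusted p = 1.52e-11), with means of 169 ± 2.75 FPKM in glp-1 D1 and 34.5 ± 2.53 FPKM in WT D1.

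Among the ferritins at D1, ftn-1 averaged 62.0 ± 15.2 FPKM in glp-1 and 2.45 ± 1.67 FPKM in wild type, a log2 fold change of 4.31 (SE 0.35, limma adjusted p = 4.34e-07). Of all genes tested, 0.0808% had a larger one. The mean of ftn-2 was 637 ± 17.6 FPKM in glp-1 and 201 ± 15.8 FPKM in wild type, a log2 fold change of 1.66 (SE 0.06, limma adjusted p = 1.24e-11). The pair of genes with the low wild-type levels, mtl-1 and ftn-1, thus had the larger differences, and each had a higher paralog that differed less. The median over all genes tested was -0.15.

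At D6 the same comparison also had all 4 genes passing as higher in glp-1, where 89.8% of all genes tested passed in either direction and 44.4% as higher and 45.4% as lower. The log2 fold change of mtl-1 was 3.24 (SE 0.34, limma adjusted p = 4.98e-06), with means of 1117 ± 142 FPKM in glp-1 and 118 ± 22.3 FPKM in wild type. That of ftn-1 was 3.91 (SE 0.35, limma adjusted p = 8.99e-07), with 341 ± 51.4 FPKM in glp-1 and 21.8 ± 3.31 FPKM in wild type. That of ftn-2 was 2.64 (SE 0.06, limma adjusted p = 2.24e-13), with 923 ± 26.7 FPKM in glp-1 and 147 ± 3.07 FPKM in wild type, a ratio of 6.29.

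The smallest difference at D6 was that of mtl-2, with 191 ± 5.89 FPKM in glp-1 and 116 ± 14.6 FPKM in wild type, a ratio of 1.65. Its log2 fold change was 0.72 (SE 0.08, limma adjusted p = 2e-06), and 39.4% of genes tested had a larger one. It became negative after scaling to the muscle and neuron genes (-1.16) or to the intestine genes (-1.43).

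Age in glp-1 was the next comparison, in which 3 of the 4 genes passed as higher at D6, against 54.7% of all genes tested passing in either direction, 39.1% as higher and 15.6% as lower. The log2 fold change was 2.46 (SE 0.35, limma adjusted p = 0.000169) for ftn-1, 1.49 (SE 0.34, limma adjusted p = 0.00427) for mtl-1 and 0.53 (SE 0.06, limma adjusted p = 8.22e-06) for ftn-2. As ratios of means these were 5.50, 2.82 and 1.45. For mtl-2 the value was 0.17 (95% interval -0.0078 to 0.35, limma adjusted p = 0.0973), close to the median of 0.20 over all genes. It passed under 4 of the other settings, among them both tissue scalings, and when WT D6 replicate 2 was left out (limma adjusted p = 0.0298). That library is outside this comparison, so the value stayed at 0.17 and only the pooled spread changed.

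With age in wild type all 4 genes passed, 3 as higher and 1 as lower, where 57.7% of all genes tested passed in either direction, 35.1% as higher and 22.7% as lower. The log2 fold change of D6 over D1 was 3.58 (SE 0.34, limma adjusted p = 1.35e-05) for mtl-1, a ratio of means of 11.9. For ftn-1 it was 2.87 (SE 0.35, limma adjusted p = 6.44e-05), a ratio of 8.92, and for mtl-2 it was 1.72 (SE 0.08, limma adjusted p = 6.01e-09), a ratio of 3.37. Between 0.11% and 0.948% of genes tested had a larger value than these 3. For ftn-2 the value was -0.45 (SE 0.06, limma adjusted p = 4.13e-05), and it turned positive after scaling to the muscle and neuron genes (0.65) or to the intestine genes (0.72).

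**Figure D2:**
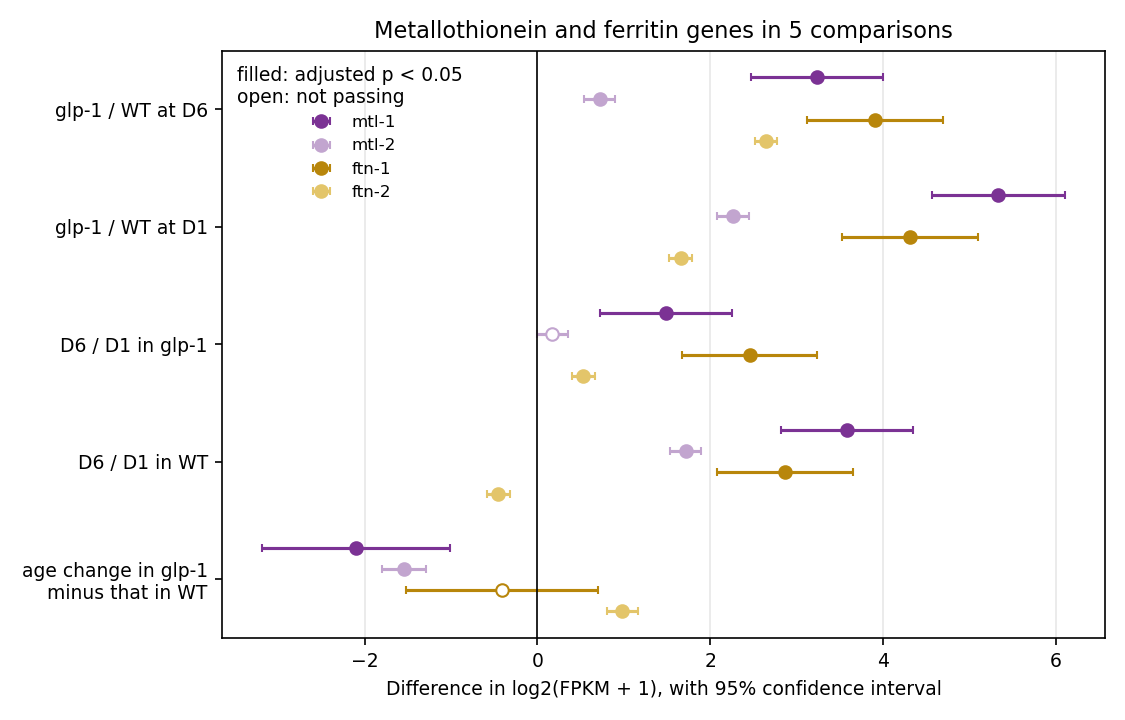
Differences in log2(FPKM + 1) of the 4 genes in 5 comparisons, with 95% confidence intervals; filled points passed at adjusted p under 0.05 and open points did not. For age in wild type ftn-2 (-0.45) lies on the other side of 0 from mtl-1, mtl-2 and ftn-1; under scaling to tissue lists it lies above 0, and mtl-2 in glp-1 against WT at D6 lies below 0.

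Whether the change with age differed between genotypes was tested as an interaction, the change in glp-1 minus the change in wild type. Of the 4 genes 3 passed, where 47.5% of all genes tested passed in either direction, 30.9% with a positive and 16.6% with a negative value. The interaction was -2.097 (SE 0.48, limma adjusted p = 0.00556) for mtl-1 and -1.54 (SE 0.12, limma adjusted p = 9.24e-07) for mtl-2. Both metallothioneins thus differed more with age in wild type than in glp-1, and 99.3% and 98.7% of genes tested had a higher value. Leaving out WT D1 replicate 2, the lowest library of mtl-1, gave -1.64 for mtl-1.

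For ftn-2 the interaction was 0.99 (SE 0.08, limma adjusted p = 2.26e-06), since the gene was higher at D6 than at D1 in glp-1 and lower at D6 in wild type. It remained positive but did not pass when libraries were scaled to the intestine list (0.16, limma adjusted p = 0.425). For ftn-1 the interaction did not pass (-0.41, 95% interval -1.52 to 0.70, limma adjusted p = 0.527), an interval that leaves room for a difference of either sign. Without WT D1 replicate 3, the library with about 6.4 fragments of ftn-1, its value was 0.077.

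Ratios of the paralogs within a library do not depend on how libraries are scaled. The ratio of mtl-1 to mtl-2 was 5.84 ± 0.583 in glp-1 D6, 2.34 ± 0.191 in glp-1 D1, 1.02 ± 0.0916 in WT D6 and 0.285 ± 0.152 in WT D1 (SD, n = 3 each). These 4 groups did not overlap. In WT D1 mtl-2 was thus the more abundant metallothionein transcript per length, in WT D6 both were about equal, and in glp-1 mtl-1 was the more abundant. The share of mtl-1 in the summed FPKM of both genes ran from 84.1% to 86.6% in glp-1 D6 libraries, from 68.0% to 71.3% in glp-1 D1, from 48.4% to 52.7% in WT D6 and from 10.9% to 29.8% in WT D1.

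The ratio of ftn-1 to ftn-2 was 0.369 ± 0.0496 in glp-1 D6, 0.0971 ± 0.0218 in glp-1 D1, 0.149 ± 0.0232 in WT D6 and 0.0118 ± 0.00765 in WT D1. In every library ftn-2 remained the more abundant ferritin transcript per length. The order of this ratio put both D6 groups above both D1 groups, again without overlap. The lowest WT D6 library stood at 0.128 and the highest glp-1 D1 library at 0.122, so these neighbours were close.

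**Figure D3:**
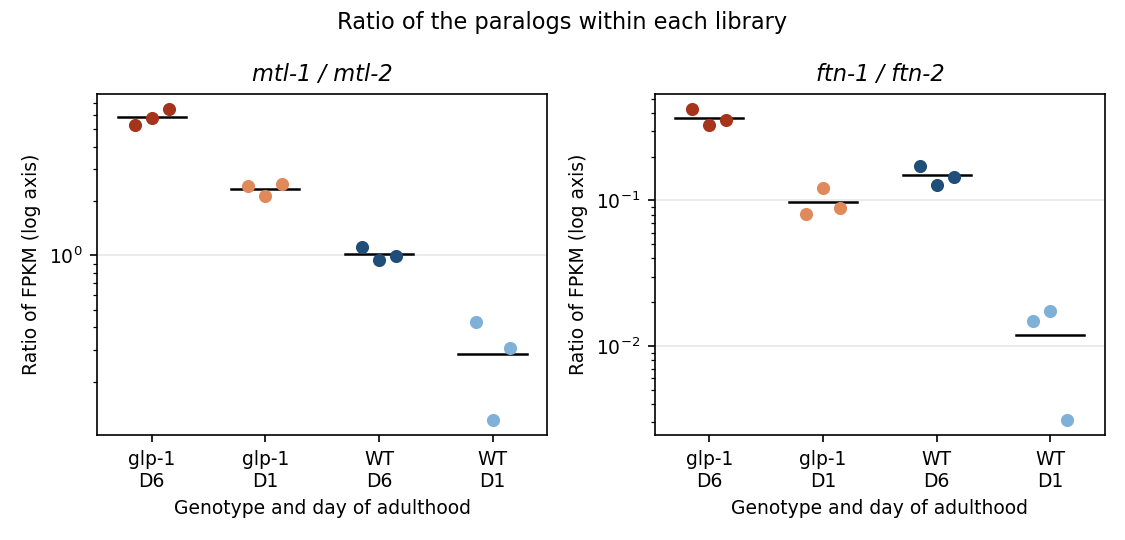
Ratio of FPKM (log axis) of mtl-1 to mtl-2 and of ftn-1 to ftn-2 within each library, by genotype and day of adulthood; bars are means of 3 libraries. The metallothionein ratio is highest in glp-1 D6 (5.84) and lowest in WT D1 (0.285), and both D6 groups have a higher ferritin ratio than both D1 groups.

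Summed over both genes, the metallothionein level was 1307 ± 147 FPKM in glp-1 D6, 565 ± 27.97 in glp-1 D1, 234 ± 36.2 in WT D6 and 44.4 ± 7.49 in WT D1. The summed ferritin level was 1264 ± 71.8 FPKM in glp-1 D6, 699 ± 30.3 in glp-1 D1, 168 ± 4.38 in WT D6 and 204 ± 17.3 in WT D1. In glp-1 D6 the sums of both families were of similar size, while in WT D1 the ferritin sum was the larger and came mostly from ftn-2. The share of ftn-1 in it was 24.7% to 29.8% in glp-1 D6 libraries and 0.310% to 1.72% in WT D1 libraries.

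Levels of tissue markers moved with genotype and age too. The geometric mean of the 11 intestine genes was 70.8 to 83.9 FPKM in glp-1 D6 libraries, 95.8 to 102 in glp-1 D1, 17.2 to 17.5 in WT D6 and 34.7 to 44.2 in WT D1. That of 31 muscle and neuron genes ran close to it, from 73.0 to 81.2, 101 to 112, 18.4 to 22.2 and 39.6 to 47.2 FPKM in the same groups. Both geometric means were thus higher in glp-1 relative to wild type, and lower at D6 than at D1. Muscle and neuron genes differed with age. Of 18 muscle genes 17 were lower at D6 in each genotype and none was higher, while of 20 tested neuron genes 9 were higher and 1 lower in glp-1, and 2 were higher and 5 lower in wild type. The shares of all genes tested were 39.1% higher and 15.6% lower in glp-1, and 35.1% and 22.7% in wild type. The summed level of the neuron list was 992 to 1023 FPKM in glp-1 D6, 638 to 684 in glp-1 D1, 539 to 611 in WT D6 and 470 to 502 in WT D1. The largest part of that sum was 1 gene, snb-1, with means of 582, 339, 471 and 359 FPKM in the same groups. Its rise at D6 is thus not that of the list, whose median log2 fold change with age was 0.23 in glp-1 and -0.14 in wild type. The summed level of 8 genes of early embryos was 0.433 to 0.888 FPKM in glp-1 D6 and 0.108 to 0.672 in glp-1 D1, against 33.2 to 39.4 in WT D6 and 22.5 to 28.1 in WT D1, with end-1, end-3, tbx-37 and tbx-38 at 0 in all glp-1 libraries and end-1 at 0 in all WT D6 libraries. The summed level of 10 genes of the larval cuticle was 21.3 to 138 FPKM in glp-1 D6, 56.2 to 96.5 in glp-1 D1, 149 to 230 in WT D6 and 225 to 254 in WT D1. The part of these tissue levels in the results for the 4 genes was not tested beyond the scalings that follow.

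Scaled to the intestine list, the log2 difference of glp-1 from wild type was 4.04 for mtl-1, 0.94 for mtl-2, 3.10 for ftn-1 and 0.32 for ftn-2 at D1. At D6 it was 1.08 for mtl-1, -1.43 for mtl-2, 1.78 for ftn-1 and 0.48 for ftn-2, and all 8 of these values passed the test. Scaling to the muscle and neuron lists gave 4.10, 1.02, 3.18 and 0.40 at D1 and 1.35, -1.16, 2.05 and 0.76 at D6 for the same genes. The differences of mtl-1 and ftn-1 at D1 thus remained above 3 under either scaling. These scalings shift every gene together. At D1 the median of all genes moved from -0.15 to -1.09 and -1.15 (muscle and neuron lists, intestine list), at D6 from -0.03 to -1.38 and -1.59. Of the genes called, the share that was higher in glp-1 moved at D1 from 46.2% to 16.95% and 15.4%, and at D6 from 49.5% to 21.2% and 15.3%. Relative to the median of all genes, mtl-2 at D6 lay 0.75 above it in FPKM as deposited, and 0.21 and 0.16 above it under these 2 scalings.

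For age the same scalings worked the other way. In wild type, scaling to the muscle and neuron lists gave 4.71 for mtl-1, 2.83 for mtl-2, 4.04 for ftn-1 and 0.65 for ftn-2, and the intestine list gave 4.79, 2.89, 4.10 and 0.72. The median of all genes in wild type moved from 0.13 to 1.13 and 1.2, and the share of called genes that was higher at D6 moved from 60.7% to 90.3% and 90.9%. Relative to that median ftn-2 lay 0.59 below it in FPKM as deposited, and 0.48 below it under each of these 2 scalings. In glp-1 the muscle and neuron scaling gave 1.96, 0.65, 2.91 and 1.01, and the intestine scaling gave 1.83, 0.52, 2.78 and 0.88. There the median moved from 0.20 to 0.49 and 0.40, and the share of higher calls from 71.4% to 90.0% and 86.98%. For the interaction the median moved from 0.15 to -0.49 and -0.65 and the share of positive calls from 65.0% to 18.9% and 13.8%.

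**Figure D4:**
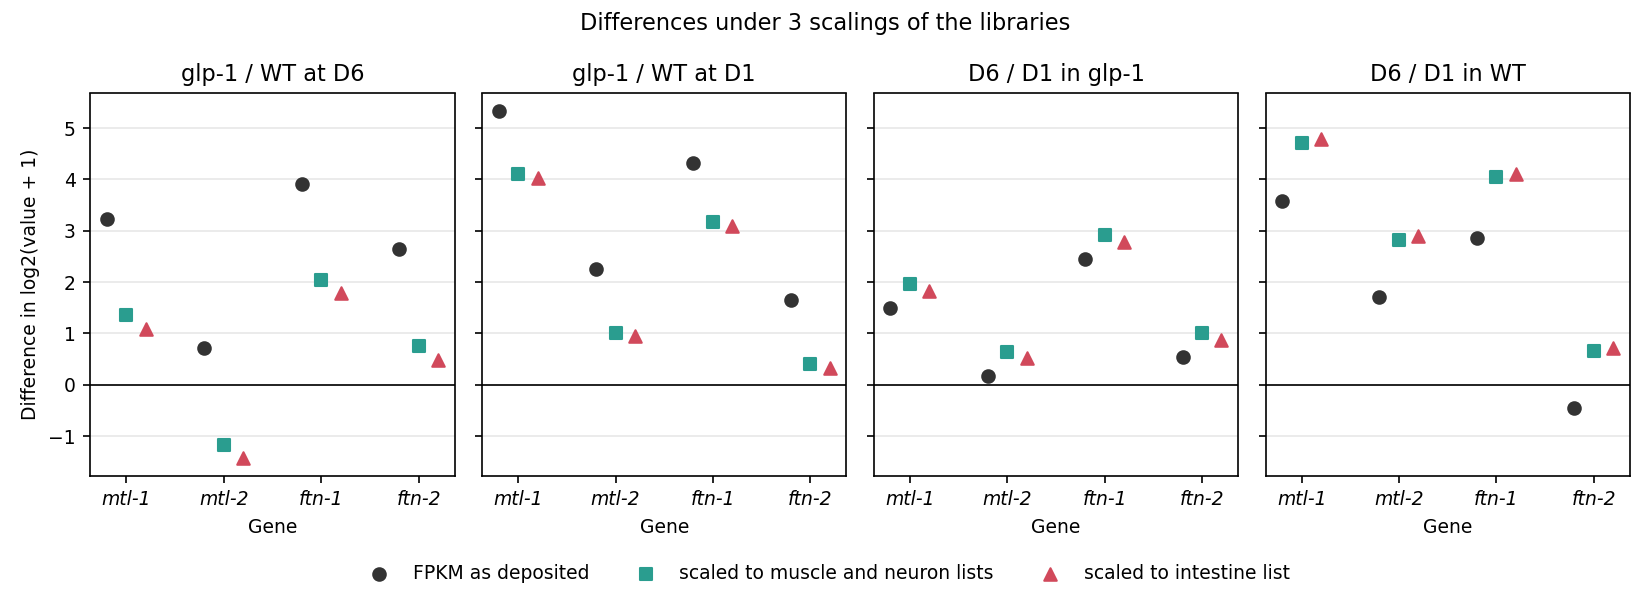
Differences in log2(value + 1) of the 4 genes in FPKM as deposited and after libraries were scaled to 31 muscle and neuron genes or to 11 intestine genes. In glp-1 against WT at D6 mtl-2 goes from 0.72 to -1.16 and -1.43, and with age in WT ftn-2 goes from -0.45 to 0.65 and 0.72, while mtl-1 and ftn-1 stay above 0 in all 4 panels.

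Other genes of metal handling were followed through lists of heavy metal response, zinc, iron, heme and copper genes, set beside all genes tested (medians of -0.15 at D1 and -0.03 at D6 for glp-1 against wild type). Of 9 tested heavy metal genes 7 were higher and 2 lower in glp-1 at each age (median 1.71 at D1 and 1.29 at D6). Over all genes tested 41.3% were higher and 48.1% lower at D1, and 44.4% and 45.4% at D6. Scaled to the muscle and neuron lists, the heavy metal counts were 5 higher and 2 lower at D1 and 3 higher and 4 lower at D6. Under that scaling 12.2% of all genes tested were higher and 59.8% lower at D1, and 16.6% and 61.6% at D6. The highest values of this list were those of the family named for the cadmium-responsive gene cdr-1. For cdr-2 the mean was 132 ± 14.5 FPKM in glp-1 D6 and 59.3 ± 4.56 in glp-1 D1, against 7.06 ± 1.67 in WT D6 and 7.84 ± 2.34 in WT D1. As log2 fold changes of glp-1 over wild type these gave 4.06 (SE 0.19) at D6 and 2.80 (SE 0.19) at D1. For cdr-6 these values were 3.14 (SE 0.06) and 1.91 (SE 0.06), and for cdr-1 the value at D6 was 1.83 (SE 0.16), which did not pass under scaling to the intestine list. With age 6 of the 9 were higher and 2 lower in glp-1, where 39.1% of all genes tested were higher and 15.6% lower. In wild type 4 of the 9 were higher and 1 lower, where 35.1% of all genes were higher and 22.7% lower. Under either tissue scaling 7 were higher and none lower in glp-1, and all 9 were higher in wild type. In glp-1 56.4% (muscle and neuron) and 50.9% (intestine) of all genes were higher under these scalings, and 6.25% and 7.62% lower. In wild type 75.5% (muscle and neuron) and 77.3% (intestine) of all genes were higher. Unlike mtl-1 and mtl-2, cdr-2 and cdr-6 had positive interactions (1.26 and 1.23), of which that of cdr-2 did not pass under either tissue scaling.

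The metal-responsive genes numr-1 and numr-2 were higher at D6 in both genotypes, as mtl-1 was. They are near-identical copies whose counts are uncertain one by one. With age, the log2 fold change was 1.45 (SE 0.15) in glp-1 and 1.98 (SE 0.15) in wild type for numr-1, and 1.41 (SE 0.15) in glp-1 and 2.00 (SE 0.15) in wild type for numr-2. In glp-1 against wild type at D1 numr-2 had 1.84 (SE 0.15). The genes of phytochelatin handling were the 2 that were lower in glp-1. Of these, hmt-1, which encodes a transporter of the ABC family, had 13.4 ± 0.588 FPKM in glp-1 D6 and 18.5 ± 0.931 in glp-1 D1, against 41.6 ± 1.29 in WT D6 and 32.1 ± 1.85 in WT D1. With age hmt-1 was higher in wild type (0.37, SE 0.07), and its interaction was -0.80.

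Of 15 tested zinc transporter genes 8 were higher and 7 lower in glp-1 at each age. The shares of all genes tested were 41.3% higher and 48.1% lower at D1, and 44.4% and 45.4% at D6. Under the muscle and neuron scaling 2 zinc genes were higher at each age and 10 (D1) or 11 (D6) were lower. Of all genes tested 12.2% were higher and 59.8% lower under that scaling at D1, and 16.6% and 61.6% at D6. The zinc importer family gene zipt-13 had log2 fold changes of 2.204 (SE 0.11) at D1 and 2.57 (SE 0.11) at D6, and zipt-2.1 had 2.60 (SE 0.14) at D6. In the other direction zipt-1 had -1.99 (SE 0.07) at D1 and -2.28 (SE 0.07) at D6, and zipt-2.4 had -2.53 (SE 0.09) at D1. With age in wild type 5 were higher and 2 lower, where 35.1% of all genes tested were higher and 22.7% lower. Among the zinc genes called were zipt-9 (0.49), zipt-2.1 (-0.50) and zipt-13 (-0.94). The last 2 turned positive under both tissue scalings, where zipt-2.1 passed (0.47 and 0.53) and zipt-13 did not (0.11 and 0.17). With age in glp-1 9 were higher and 2 lower, where 39.1% of all genes tested were higher and 15.6% lower. At the top of the zinc genes were cdf-1 (0.77), zipt-2.1 (0.69) and zipt-2.2 (0.65). The last of these did not pass without glp-1 D6 replicate 2 or without glp-1 D1 replicate 3. Interactions passed as positive for 5 zinc genes and as negative for 1, where 30.9% and 16.6% of all genes tested did. The largest were those of zipt-2.1 (1.18), zipt-2.2 (1.02) and sur-7 (0.65), the last of which turned negative under scaling to the intestine list. None of these 3 interactions passed under either tissue scaling, where none of the 15 genes had a positive one that passed.

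Iron genes divided. Of 9 tested, 5 were higher and 4 lower in glp-1 at D1, and 4 were higher and 5 lower at D6. The shares of all genes tested were 41.3% higher and 48.1% lower at D1, and 44.4% and 45.4% at D6. With the muscle and neuron scaling 2 iron genes were higher at each age and 5 (D1) or 7 (D6) lower. Among all genes tested that scaling gave 12.2% higher and 59.8% lower at D1, and 16.6% and 61.6% at D6. The ferroportin fpn-1.1, of the family that exports iron from cells, had 46.0 ± 4.88 FPKM in glp-1 D6 and 38.2 ± 1.16 in glp-1 D1, against 6.58 ± 0.253 in WT D6 and 11.3 ± 1.00 in WT D1. For glp-1 over wild type this was a log2 fold change of 2.63 (SE 0.09) at D6 and 1.68 (SE 0.09) at D1, and the change with age in wild type was -0.69 (SE 0.09), which turned positive under both tissue scalings, as did that of ftn-2. The divalent metal importer smf-3 had 1.99 (SE 0.16) at D6 and 1.49 (SE 0.16) at D1 for glp-1 over wild type, and the value at D6 did not pass under scaling to the intestine list. The frataxin gene frh-1, which serves iron-sulfur cluster assembly in mitochondria, had -1.98 (SE 0.19) at D6 and -1.63 (SE 0.19) at D1.

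Scaled by the median of ratios, 5 iron genes were higher and 2 lower in glp-1 at D1, where 46.6% of all genes tested were higher and 44.7% lower. With age, in FPKM as deposited, 3 iron genes were higher and 2 lower in glp-1, and 5 were higher and 2 lower in wild type. Over all genes tested 39.1% were higher and 15.6% lower in glp-1, and 35.1% and 22.7% in wild type. The metal importers smf-1 (0.63) and smf-3 (0.71) were higher at D6 in glp-1, and smf-1 was also higher in wild type (0.63). The aconitase gene aco-1, the worm relative of the iron regulatory proteins of mammals, had 33.2 ± 1.28 FPKM in glp-1 D6 and 106 ± 5.10 in glp-1 D1, against 48.0 ± 5.49 in WT D6 and 80.8 ± 4.21 in WT D1. Its change with age was -1.64 (SE 0.08) in glp-1 and -0.74 (SE 0.08) in wild type, of which the second turned positive under both tissue scalings. Interactions passed as positive for 1 iron gene and as negative for 4, where 30.9% and 16.6% of all genes tested did. The largest were those of fpn-1.1 (0.95), aco-1 (-0.89) and nfs-1 (-0.65), the cysteine desulfurase of iron-sulfur clusters. The one of fpn-1.1 did not pass under either tissue scaling, while those of aco-1 and nfs-1 did.

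Of 7 tested heme genes 6 were higher in glp-1 at D1 and 1 did not pass, and all 7 were higher at D6. Over all genes tested 41.3% were higher and 48.1% lower at D1, and 44.4% and 45.4% at D6. Under the muscle and neuron scaling 2 heme genes were higher and 1 lower at D1, and 1 was higher and 3 were lower at D6. Of all genes tested 12.2% were higher and 59.8% lower there at D1, and 16.6% and 61.6% at D6. The heme importer hrg-1 averaged 30.5 ± 0.437 FPKM in glp-1 D6 and 87.2 ± 16.1 in glp-1 D1, against 17.8 ± 0.856 in WT D6 and 18.8 ± 1.29 in WT D1. Its log2 fold change of glp-1 over wild type was 2.15 (SE 0.11) at D1, its change with age in glp-1 was -1.47 (SE 0.11), and its interaction was -1.40. At D1 hrg-6 had 2.50 (SE 0.33) and mrp-5, a heme exporter of the intestine, had 1.25 (SE 0.07). The value of mrp-5 did not pass under either tissue scaling (-0.060 with the intestine list). At D6 mrp-5 had 1.41 (SE 0.07), hrg-6 had 1.34 (SE 0.33) and hrg-9 had 1.29 (SE 0.19). Scaled to the intestine list, mrp-5 turned negative (-0.73), while hrg-6 (-0.056) and hrg-9 (-0.0055) did not pass. Under the muscle and neuron scaling mrp-5 was negative at D6 too, and hrg-6 and hrg-9 did not pass. With age 1 of the 7 was higher and 4 were lower in glp-1, and 1 was higher and 1 lower in wild type. The shares of all genes tested were 39.1% higher and 15.6% lower in glp-1, and 35.1% and 22.7% in wild type. In glp-1 hrg-6 had -1.29 (SE 0.33), which did not pass under either tissue scaling, and mrp-5 had 0.69 (SE 0.07). In wild type mrp-5 had 0.53 (SE 0.07) and hrg-3 had -1.19 (SE 0.27), and the interaction of hrg-3 was 1.40. The level of hrg-3 was low, at 1.05 ± 0.783 FPKM in glp-1 D6, 0.708 ± 0.299 in glp-1 D1, 0.0396 ± 0.0685 in WT D6 and 1.44 ± 0.729 in WT D1.

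Of the 6 copper genes 1 was higher and 5 were lower in glp-1 at each age, where 48.1% (D1) and 45.4% (D6) of all genes tested were lower. Scaled by the median of ratios, 1 was higher at each age and 2 (D1) or 4 (D6) were lower. By that scaling 44.7% (D1) and 42.4% (D6) of all genes tested were lower. Under either tissue scaling none was higher and 5 were lower at D1, and 1 was higher and 5 were lower at D6. Of all genes tested, 59.8% (muscle and neuron) and 61.1% (intestine) were lower at D1, and 61.6% and 65.7% at D6. The higher copper gene was chca-1, a copper transporter, with log2 fold changes of 1.03 (SE 0.22) at D1 and 1.94 (SE 0.22) at D6. The first did not pass under either tissue scaling, with -0.14 (muscle and neuron) and -0.21 (intestine). The lower ones included cutc-1 (-1.97 at D1 and -2.25 at D6) and cox-17 (-1.45 and -2.76), a copper chaperone of cytochrome oxidase. With age none of the 6 was higher and 4 were lower in glp-1, while 3 were higher and 2 lower in wild type. Over all genes tested 39.1% were higher and 15.6% lower in glp-1, and 35.1% and 22.7% in wild type. In wild type chca-1 had -2.60 (SE 0.22), cuc-1 had -0.41 (SE 0.10) and sco-1 had 0.36 (SE 0.08), and the value of cuc-1 turned positive under both tissue scalings. In glp-1 chca-1 had -1.68 (SE 0.22), cox-17 had -1.29 (SE 0.17) and sco-1 had -0.98 (SE 0.08). Interactions passed as positive for 1 copper gene and as negative for 4, where 30.9% and 16.6% of all genes tested did. The largest were those of sco-1 (-1.34), cox-17 (-1.303) and chca-1 (0.91). That of chca-1 did not pass under scaling to the intestine list or by the median of ratios.

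**Figure D5:**
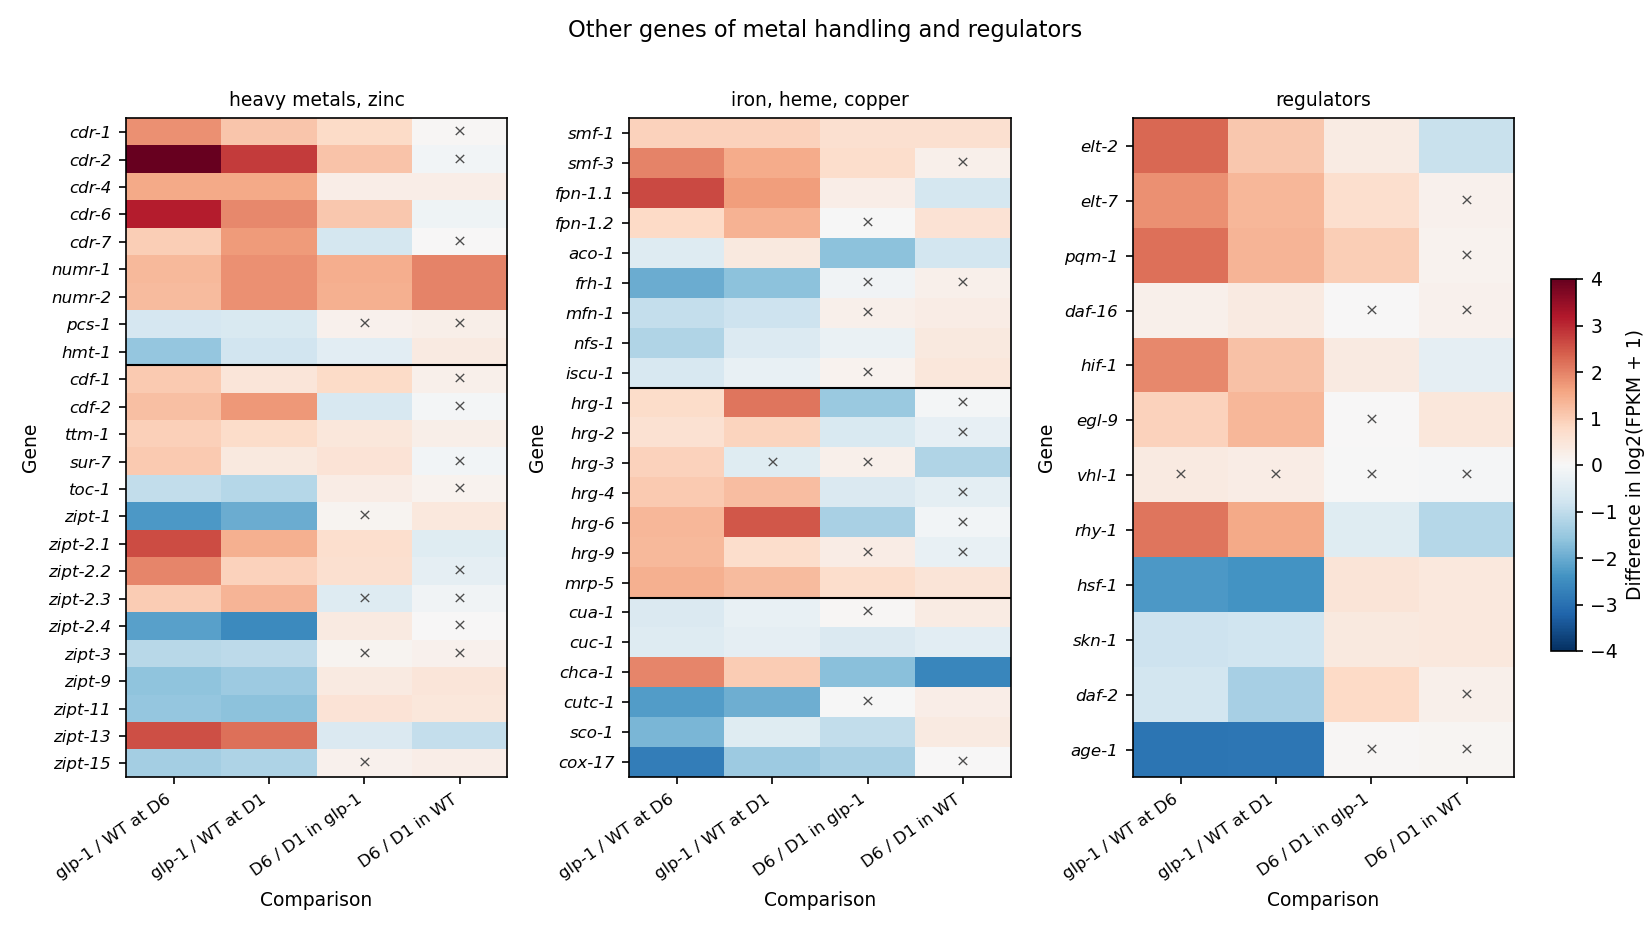
Differences in log2(FPKM + 1) of the tested genes of the heavy metal, zinc, iron, heme, copper and regulator lists in 4 comparisons, in FPKM as deposited; red is higher and blue lower in the first-named group, colours end at 4 and -4, and crosses mark values that did not pass. For glp-1 against WT at D6 the darkest red is cdr-2 (4.06); with the muscle and neuron scaling, values for glp-1 against WT are lower and several turn, as given in the text.

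Transcripts of factors known to act on the 4 genes were read from the same fit. The GATA factor elt-2, the main regulator of intestinal genes and an activator of both metallothioneins and ftn-1, had 32.0 ± 4.58 FPKM in glp-1 D6 and 25.4 ± 1.90 in glp-1 D1, against 5.69 ± 0.567 in WT D6 and 11.5 ± 0.391 in WT D1. Its log2 fold change of glp-1 over wild type was 2.295 (SE 0.11) at D6 and 1.08 (SE 0.11) at D1. The value at D1 did not pass under either tissue scaling, with -0.11 (muscle and neuron) and -0.18 (intestine). With age elt-2 had 0.31 (SE 0.11) in glp-1 and -0.90 (SE 0.11) in wild type, and its interaction was 1.22. The wild-type value did not pass under either tissue scaling, with 0.086 (muscle and neuron) and 0.15 (intestine). The value in glp-1 did not pass when libraries were scaled by the median of ratios, nor in 4 of the fits that left out 1 library. In FPKM as deposited, mtl-1, mtl-2 and ftn-1 were higher and elt-2 was lower at D6 in wild type. A part of elt-2 in their levels was not tested. The intestine list holds elt-2 too.

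The hypoxia factor hif-1 had 183 ± 2.91 FPKM in glp-1 D6 and 142 ± 7.18 in glp-1 D1, against 47.9 ± 2.64 in WT D6 and 62.2 ± 4.60 in WT D1. This is the same order of groups as that of ftn-2. Its log2 fold change of glp-1 over wild type was 1.92 (SE 0.07) at D6 and 1.18 (SE 0.07) at D1, and its change with age was 0.37 (SE 0.07) in glp-1 and -0.37 (SE 0.07) in wild type. The interaction was 0.74 and did not pass under either tissue scaling. Scaled to the intestine list, the genotype values (-0.145 at D1 and -0.23 at D6) and the interaction (-0.083) did not pass. With the muscle and neuron lists the D1 value (-0.071) did not pass either. The wild-type age value turned positive and passed with the intestine list (0.80) and with the muscle and neuron lists (0.73). The hydroxylase gene egl-9, whose product marks HIF-1 for destruction, had 1.33 (SE 0.12) at D1 and 0.91 (SE 0.12) at D6 for glp-1 over wild type, the second of which turned negative under both tissue scalings while the first did not pass under either. With age egl-9 had 0.029 (limma adjusted p = 0.877) in glp-1 and 0.44 (SE 0.12) in wild type. Another gene of this pathway, rhy-1, had 1.505 (SE 0.10) for glp-1 over wild type at D1 and -1.13 (SE 0.10) with age in wild type, neither of which passed under either tissue scaling.

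The transcript of daf-16, the forkhead factor of the insulin pathway, differed little. It had 127 ± 5.62 FPKM in glp-1 D6 and 127 ± 3.36 in glp-1 D1, against 112 ± 8.77 in WT D6 and 100.03 ± 8.46 in WT D1. As a log2 fold change of glp-1 over wild type it had 0.19 (SE 0.07) at D6 and 0.35 (SE 0.07) at D1, both turning negative under both tissue scalings, and the value at D6 did not pass without glp-1 D6 replicate 3 or without WT D6 replicate 1. Age values did not pass in glp-1 (0.0024, limma adjusted p = 0.997) or in wild type (0.16, limma adjusted p = 0.0796). Transcript levels do not show the nuclear entry by which this factor is controlled. The zinc-finger gene pqm-1 had 110 ± 10.5 FPKM in glp-1 D6 and 55.4 ± 6.34 in glp-1 D1, against 23.4 ± 2.42 in WT D6 and 21.1 ± 3.74 in WT D1. For glp-1 over wild type that was 2.19 (SE 0.13) at D6 and 1.36 (SE 0.13) at D1, with an interaction of 0.83, and none of these 3 values passed under either tissue scaling.

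In the regulator list as a whole 7 of 12 tested genes were higher and 4 lower in glp-1 at each age. The shares of all genes tested were 41.3% higher and 48.1% lower at D1, and 44.4% and 45.4% at D6. Under the muscle and neuron scaling none of the regulators was higher and 6 were lower at D1. Under that scaling 12.2% of all genes tested were higher and 59.8% lower at D1. The regulators lower in FPKM as deposited included age-1, the kinase gene of the insulin pathway (-2.90 at D1 and -2.93 at D6), and the heat shock factor gene hsf-1 (-2.38 and -2.29). With age 7 of the 12 were higher and 1 lower in glp-1, and 3 were higher and 3 lower in wild type. Over all genes tested 39.1% were higher and 15.6% lower in glp-1, and 35.1% and 22.7% in wild type. In glp-1 the insulin receptor gene daf-2 (0.80), elt-7 (0.67) and pqm-1 (0.98) were higher. Under the muscle and neuron scaling the counts for age in wild type were 9 higher of 9 heavy metal genes, 13 of 15 zinc genes, 9 of 9 iron genes, 3 of 7 heme genes, 5 of 6 copper genes and 10 of 12 regulator genes. Under that scaling 75.5% of all genes tested were called higher with age in wild type, against 35.1% in FPKM as deposited.

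Genes whose pattern was most like each of the 4 were taken as the 5 with the highest Pearson correlation of log2(FPKM + 1) over the 12 libraries, among 13613 other genes. These points share the 4 groups, so that any gene with the same order of group means has a high value, and the correlations describe the pattern only. The 4 genes themselves had correlations of 0.97 between mtl-1 and mtl-2, 0.96 between mtl-1 and ftn-1, 0.92 between mtl-2 and ftn-1, 0.81 between ftn-1 and ftn-2, 0.77 between mtl-1 and ftn-2 and 0.67 between mtl-2 and ftn-2. Thus ftn-1 was closer in pattern to mtl-1 than to its own paralog. Most like mtl-1 was the lipase gene lipl-2 (0.989), with 127 ± 23.3 FPKM in glp-1 D6, 60.7 ± 10.5 in glp-1 D1, 27.3 ± 5.15 in WT D6 and 6.86 ± 1.64 in WT D1, followed by C50D2.7, ZC395.5, T01G1.2 and cpg-7 (0.98 to 0.99).

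For mtl-2 the nearest gene was dhs-26, of the short-chain dehydrogenase family (0.993), with 391 ± 7.01 FPKM in glp-1 D6, 375 ± 19.5 in glp-1 D1, 66.6 ± 2.76 in WT D6 and 0.428 ± 0.336 in WT D1. Then came Y22D7AR.10, F02D8.5, T22B7.7 and mtl-1 itself (0.97 each). For ftn-1 the nearest was eol-1 (0.993), with 17.9 ± 2.15 FPKM in glp-1 D6, 6.16 ± 0.189 in glp-1 D1, 3.09 ± 0.275 in WT D6 and 0.346 ± 0.221 in WT D1, followed by sra-14, fipr-22, R03H10.1 and F08B12.4 (0.99 each). For ftn-2 the nearest were dpf-6 and R07E3.4 (0.998 each), hif-1 (0.998), T19D12.2 and kin-2 (0.997 each), where dpf-6 had 15.7 ± 0.434 FPKM in glp-1 D6, 9.88 ± 0.700 in glp-1 D1, 1.54 ± 0.240 in WT D6 and 2.49 ± 0.172 in WT D1. As in ftn-2 and hif-1, the level of dpf-6 was higher at D6 in glp-1 and lower at D6 in wild type by its means.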

How the data were processed

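RNA was extracted from whole worms with TRIzol and made into libraries with a NEBNext Ultra kit, per the labels' protocols. HISAT2 2.0.4, DESeq2 1.6.3 and the build WBcel235 are named in the submitters' processing notes. The deposited values are FPKM per gene, computed by the authors and named per the file headers. For the program, its treatment of short transcripts, the annotation release and the use of strand, details were not given in the sources used here. Coordinates came from an Ensembl annotation of WBcel235. The depth per library was estimated from the steps between low FPKM of 10962 genes; at that estimate 31.4% to 37.2% of low values lay within 0.1 fragments of a whole number, against a median of 17.0% to 18.5% over the depths tried, so counts could not be recovered, and fragment numbers are approximate.

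The filter on low values asked for at least 1 FPKM in 3 or more libraries (13614 genes tested, 6643 left out). The test was limma 3.58.1 (R 4.3.3, trend and robust) on log2(FPKM + 1), with 1 mean per group over 12 libraries (8 residual degrees of freedom) and Benjamini-Hochberg adjustment over all genes tested. Genes were called at adjusted p under 0.05, two-sided. Fold changes on this scale understate those of low genes. Whether replicates were separate cultures is not stated, and the p-values measure only how far these libraries spread, which may be technical. The fitting code was tested on simulated data.

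The members and lists were chosen with earlier results of these data known. Beside the 4 members, the rule for named genes took, of each metal or regulator list, the called genes with the 3 largest absolute log2 fold changes in a comparison, and always elt-2, pqm-1, daf-16, hif-1 and egl-9; and for each member the 5 genes most like it. Of 147 entries in 12 lists, 126 matched a symbol and 14 a sequence name, and 7 matched neither; those 7 (hizr-1 among them) were not analysed here. Alternatives were another pseudocount, no filter, 4 other scalings, other moderation, fewer libraries, a replicate block and leaving out each library.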

Additional observations from a re-analysis of the deposited data

Results flagged for a closer look

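The change with age differed between the genotypes, by the interaction test, for 3 of the 4 genes. It also did for 17 list genes given here, at most the 3 with the largest interactions of each metal or regulator list. Other genes of these lists, some of them named above in other comparisons, passed with smaller values and are not given. The values are the change in glp-1 minus the change in wild type on the log2(FPKM + 1) scale. Both metallothioneins differed less with age in glp-1, with -2.097 for mtl-1 and -1.54 for mtl-2, while ftn-2 had 0.99. Among the 17, positive values were found for cdr-2 (1.26), cdr-6 (1.23), sur-7 (0.65), zipt-2.1 (1.18), zipt-2.2 (1.02), fpn-1.1 (0.95), hrg-3 (1.40), chca-1 (0.91), elt-2 (1.22), pqm-1 (0.83) and hif-1 (0.74). Negative values were found for hmt-1 (-0.80), aco-1 (-0.89), nfs-1 (-0.65), hrg-1 (-1.40), sco-1 (-1.34) and cox-17 (-1.303). Of all genes tested 47.5% passed the interaction test, so these flags are not particular to metal genes. Under scaling to muscle and neuron genes or to intestine genes, the positive values of cdr-2, sur-7, zipt-2.1, zipt-2.2, fpn-1.1, pqm-1 and hif-1 no longer passed with either, and those of ftn-2 and chca-1 did not pass with the intestine genes. Those of cdr-6, hrg-3 and elt-2 and the negative values of mtl-1, mtl-2, hmt-1, aco-1, nfs-1, hrg-1, sco-1 and cox-17 passed with both. Levels of intestine, muscle and neuron markers moved with both genotype and age.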

How the results depend on the processing

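Each result was recomputed under 21 other settings. Of 416 recomputed values of the 4 genes, 405 kept their direction and their side of the threshold. Of the 416, 240 left out 1 library. Where that library was outside the 2 groups compared, the fold change could not move, and only the estimate of the spread could. The same holds for other moderation, the replicate block and the fits of only 6 libraries, so 405 overstates how far directions were put to a test. Every count of genes or of members called in either direction stayed within 1.5 times its value. Counts of genes called as higher did not. Scaled to the muscle and neuron lists or to the intestine list, they were 1661 and 1518 for genotype at D1 (5624 as deposited), 2260 and 1617 at D6 (6045), 10278 and 10528 for age in wild type (4773), and 1473 and 1197 for the interaction (4205). Under scaling to the intestine list mtl-2 in glp-1 against wild type at D6 was -1.43, ftn-2 with age in wild type 0.72, mtl-2 with age in glp-1 0.52 (now passing) and the interaction of ftn-2 0.16 (no longer passing). Under scaling to the muscle and neuron lists the first 3 were -1.16, 0.65 and 0.65. With age in glp-1 mtl-2 also passed after scaling to an equal sum (0.22) and with only the 6 libraries of the groups compared (0.17). Leaving out 1 library gave it 0.15 to 0.19. Of these fits it passed without WT D6 replicate 2, a library outside this comparison, where the value stayed at 0.17. The interaction of ftn-1 ran from -0.73 to 0.077 when 1 library was left out. The cause of these moves was not tested.

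Among list genes, scaling to the intestine list turned, in glp-1 against WT at D1, chca-1 (-0.21), daf-16 (-0.98), elt-2 (-0.18), hif-1 (-0.14) and mrp-5 (-0.060); at D6, daf-16 (-1.96), egl-9 (-1.14), hif-1 (-0.23), hrg-6 (-0.056), hrg-9 (-0.0055) and mrp-5 (-0.73); with age in wild type, aco-1 (0.42), cuc-1 (0.76), elt-2 (0.15), fpn-1.1 (0.38), hif-1 (0.80), zipt-13 (0.17) and zipt-2.1 (0.53); and for the interaction, hif-1 (-0.083) and sur-7 (-0.17). Scaling to the muscle and neuron lists turned, at D1, chca-1 (-0.14), daf-16 (-0.90), elt-2 (-0.11) and hif-1 (-0.071); at D6, daf-16 (-1.69), egl-9 (-0.88) and mrp-5 (-0.46); and with age in wild type, aco-1 (0.35), cuc-1 (0.69), elt-2 (0.086), fpn-1.1 (0.32), hif-1 (0.73), zipt-13 (0.11) and zipt-2.1 (0.47). With age in glp-1, where neither passed, daf-16 was -0.11 and egl-9 -0.083 under the median of ratios, and when 1 library was left out daf-16 ran from -0.032 to 0.029 and egl-9 from -0.095 to 0.10. Of the turned values, chca-1, elt-2 and hif-1 at D1 did not pass under either list scaling. Neither did elt-2 and zipt-13 with age in wild type. With the intestine list, mrp-5 at D1, hif-1, hrg-6 and hrg-9 at D6, and the interactions of hif-1 and sur-7 did not pass. These 2 list scalings set the level of a tissue list equal in all libraries by construction. List counts under the scalings were chosen after seeing the data.

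Libraries of different groups with the same number did not deviate together (18 pairs, correlations -0.14 to 0.15, 1 of them over 0.1; 3 of 12 libraries matched their own number best), so the numbers were not taken as pairs. With the replicate number as a block, 12138, 12218, 7278, 7681 and 6308 genes were called for genotype at D1 and at D6, age in glp-1, age in wild type and the interaction, and no call of the 4 genes changed. At WT D1 some libraries held few fragments of mtl-1 and ftn-1.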
